A study of Mus musculus with 9 samples.

Results

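The long non-coding RNA (lncRNA) genes described here were those annotated as lincRNA or antisense whose level averaged at least 2 FPKM (fragments per kilobase of gene, scaled to the mapped fragments of each library) over the 9 libraries of a mouse embryonic stem cell (ESC) series. They numbered 112, of 5950 genes with these annotations and 47729 genes in the deposited table. Of the 112, 73 were annotated lincRNA and 39 antisense. Members were selected on their measured mean FPKM, so levels are given as a description. Before exclusions 114 genes passed, and Meg3 and Mirg were the 2 that a list of 7 imprinted or otherwise assigned genes removed. The 3 members nearest to the threshold were Gm42434, Gm26982 and Gm13375, each at 2.01 FPKM, and the nearest genes outside it were 4930526L06Rik at 1.97, 1700001L05Rik at 1.95 and Gm27003 at 1.94 FPKM.

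The ESCs carried a doxycycline (dox)-inducible E2A forced homodimer, made of a FLAG-tagged E47 and another E47 tethered to it by a linker and driven by a tetracycline-response element, placed by cassette exchange upstream of Hprt. Cells were kept in LIF and serum and were sampled without dox (0 h) and after 18 h and 24 h in dox at 1 µg/ml, with 3 replicates at each time. The 0 h cells carried the same uninduced transgene, and with no dox-treated line lacking it in this set, effects of dox, of time and of the homodimer cannot be told apart. The treatment note of the labels names other hours than the sample titles, and the titles were used.

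E2A, encoded by Tcf3, is a basic helix-loop-helix factor that binds E-box sequences as a dimer. LncRNAs are transcribed by RNA polymerase II and processed much like mRNAs but are not known to be translated. Some act in the nucleus as scaffolds, as Malat1 and Neat1 do in nuclear speckles and paraspeckles, some carry small nucleolar RNAs (snoRNAs) or microRNAs in their introns, and many are transcribed from a promoter shared with a coding gene on the opposite strand.

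Each library held 22028363 to 26471569 reads on genes, of which the 112 members took 0.294 to 0.425%. Tcf3, on which transgene reads are also counted, stood at 41.2, 37.7 and 38.5 FPKM at 0 h, 116, 107 and 107 after 18 h, and 104, 93.6 and 108 after 24 h. All 10 ESC markers were expressed in every group, with a summed level of 1333 to 2027 FPKM at 0 h and 994 to 1620 FPKM at 24 h. The 8 fibroblast feeder markers summed to 7.58 to 15.7 FPKM at 0 h and 7.97 to 12.8 FPKM at 24 h, and none had a mean of 0. Of these 8, 6 were tested, and Pdgfrb rose and Thy1 fell at 24 h. Of 6 trophectoderm markers 4 (Cdx2, Hand1, Krt8 and Krt18) rose at 24 h, and their summed level was 318 to 374 FPKM at 0 h and 611 to 813 FPKM at 24 h, while of 5 neural markers Sox1 and Neurod4 rose at 24 h and that list's summed level was 37.0 to 49.4 FPKM at 0 h and 58.2 to 83.7 FPKM at 24 h. The part of these cell-type changes in the lncRNA values was not tested. In bulk RNA, fewer cells of a type and less RNA per cell cannot be told apart.

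Most members were low. The median mean level was 4.01 FPKM, 65 members lay from 2 to under 5 FPKM, 24 from 5 to under 10, and 23 at 10 or more. All 112 were at or above 1 FPKM in every library. The median member was counted by 138 reads in a library, and the lowest member value was 6 reads. At the top were Gm42418 (350 FPKM), the nuclear speckle RNA Malat1 (120 FPKM), the ESC transcript Platr10 (79.3 FPKM), the snoRNA host Epb41l4aos (71.9 FPKM) and Gm15564 (50.7 FPKM). Of the 111 members with coordinates in the GENCODE M21 annotation (GRCm38), 36 overlapped a coding gene on the opposite strand, 26 of them in exons. Another 13 started within 1 kb of a coding gene and ran away from it, and 4 overlapped a coding gene on their own strand. The remaining 58, called apart here, did neither but could lie close to a coding gene, as Epb41l4aos does at 340 bases from Epb41l4a. The libraries were made with a stranded kit, but the strand setting of the counting is not given in the sources used here, so values of overlapping genes may share reads. The later annotation lists 2 members, 6330403K07Rik and Platr17, as protein coding.

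The comparison of dox-treated with untreated cells asks which lncRNAs change once the homodimer is induced. After 18 h 1 of the 112 members, Gm42637, was upregulated and 0 were downregulated at thresholds of 0.05 for the adjusted p and 1 for the size of the log2 fold-change (limma on log2(FPKM + 0.1)). After 24 h Gm42637 was upregulated, and Gm12688 and Gm15706 were downregulated. Over all 17951 genes tested the same thresholds called 1.33% up and 0.724% down at 18 h, and 2.07% up and 0.836% down at 24 h. Among the 9625 coding genes with a mean of at least 2 FPKM, they called 0.727% up and 0.426% down at 18 h, and 0.987% up and 0.468% down at 24 h. The members' 1 and 0 calls at 18 h and 1 and 2 calls at 24 h are too few to set against these shares. The 18 h and 24 h comparisons use the same 0 h libraries.

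By adjusted p alone 4 members were higher and 4 lower at 18 h, beside 4.27% of all genes higher and 3.72% lower. At 24 h 4 were higher and 5 lower, beside 6.52% and 5.11% of all genes. With a limma fit that took the replicate as a block, 7 members rose and 9 fell at 18 h and 8 rose and 15 fell at 24 h by adjusted p alone, a total of 16 (14.3%) and 23 (20.5%), when the same fit called 21.6% and 26.1% of all genes. With the block and both thresholds the counts became 1 up and 1 down at 18 h, and 1 up and 3 down at 24 h, and 2.82% and 3.51% of all genes were called in either direction. The added member was 1700097N02Rik at both times. All 3 libraries at 18 h lay above all 3 at 0 h for 13 members and below them for 11, with 14.4% and 13.7% of all genes doing so. At 24 h these counts were 14 and 16 members, with 16.7% and 14.6% of all genes. The median log2 fold-change of the members was -0.02 at 18 h and -0.07 at 24 h, and that of all genes tested was 0.00 at each time. The middle of the members' distribution ran from -0.21 to 0.19 at 18 h and from -0.29 to 0.16 at 24 h (quartiles), against -0.20 to 0.20 and -0.19 to 0.23 for all genes tested, and -0.14 to 0.15 and -0.15 to 0.16 for coding genes of at least 2 FPKM.

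**Figure D1:**
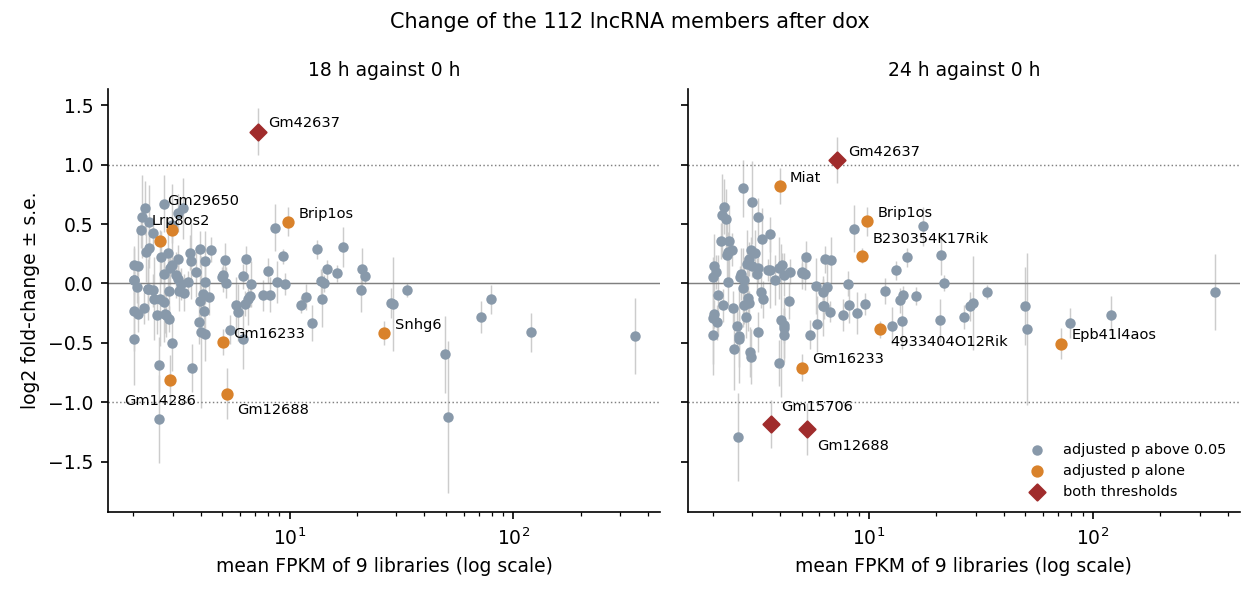
Log2 fold-change of each of the 112 lncRNA members against its mean FPKM over the 9 libraries (log axis), at 18 h (left) and 24 h (right) against 0 h. Bars are the limma standard error, dotted lines mark a log2 fold-change of 1 in each direction, and named points passed an adjusted p of 0.05. Most members lie close to 0, with Gm42637 above the upper line at both times and Gm12688 and Gm15706 below the lower line at 24 h.

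From 18 h to 24 h 0 members were called by limma at both thresholds, and 0.0223% of all genes were. At an unadjusted p under 0.05 there were 7 of the 112 members and 1004 of the 17951 genes, and limma with the block, edgeR and DESeq2 also called 0. Miat had the lowest limma p among them, 0.00611, a change of 0.54±0.15 log2 units (s.e.) and an adjusted p of 0.813.

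Gm42637 was the member that rose most. It is an uncharacterised lincRNA of 4 exons and 764 exonic bases at chr5:125238314-125272815 on the minus strand (GRCm38), and GENCODE M21 calls it Gm32585. Its level was 3.57, 4.20 and 3.79 FPKM in the 0 h libraries, 7.04, 10.03 and 12.01 after 18 h, and 7.37, 6.92 and 10.05 after 24 h. Every dox-treated library was above every untreated library. The mean was 3.85±0.320 FPKM at 0 h (s.d., n=3), and the 18 h and 24 h means were 2.52 and 2.11 times as high. Its log2 fold-change reached 1.28±0.20 at 18 h (s.e., limma adjusted p=0.00688) and 1.04±0.20 at 24 h (limma adjusted p=0.0125). The 24 h value sat close to the fold threshold and fell under it, to 0.99 without 0 h replicate 1, to 0.88 without 24 h replicate 3 and to 0.90 with a pseudocount of 1. The nearest coding gene is Scarb1, a receptor for high-density lipoprotein, which ends 4271 bases before Gm42637 begins, on the same strand. Scarb1 was at 4.25, 4.48 and 4.77 FPKM at 0 h, 3.66, 3.60 and 4.02 after 18 h, and 4.57, 3.99 and 4.78 after 24 h. Its log2 fold-change was -0.25 (limma adjusted p=0.138, with the block 0.0406) and -0.02 (limma adjusted p=0.924). The change of Gm42637 exceeded that of Scarb1 by 1.53 log2 units at 18 h (95% interval 1.02 to 2.04, limma adjusted p over pairs=0.026, with the block 0.0516) and by 1.06 at 24 h (0.55 to 1.57, limma adjusted p=0.0533). The first 200 of the 764 bases of its transcript in GENCODE M21 are shown because it is the member that rose most. They hold no E-box of the kinds searched below.
Gm42637: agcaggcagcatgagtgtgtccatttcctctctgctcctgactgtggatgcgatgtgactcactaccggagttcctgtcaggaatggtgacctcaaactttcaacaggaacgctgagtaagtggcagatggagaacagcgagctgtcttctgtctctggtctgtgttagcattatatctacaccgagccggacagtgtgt

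Gm12688 and its neighbour Foxd3 fell side by side. Gm12688 is a 2-exon lincRNA at chr4:99653607-99654983 on the minus strand, and Foxd3, a forkhead factor of pluripotent cells and neural crest, starts 1316 bases away at chr4:99656299-99658622 on the plus strand, so that the pair is head to head. Gm12688 was at 11.2, 6.89 and 6.495 FPKM at 0 h, 4.55, 3.72 and 4.19 after 18 h, and 4.21, 2.74 and 3.25 after 24 h. Foxd3 was at 10.5, 8.75 and 6.63 FPKM at 0 h, 5.01, 4.47 and 4.25 after 18 h, and 4.13, 2.97 and 3.97 after 24 h. For both genes each untreated library was above every dox-treated library, and 0 h replicate 1 was the highest. The log2 fold-change of Gm12688 was -0.93±0.22 at 18 h (limma adjusted p=0.0343) and -1.22±0.22 at 24 h (limma adjusted p=0.00964). That of Foxd3 was -0.88±0.18 (limma adjusted p=0.0196) and -1.19±0.18 (limma adjusted p=0.00469). The difference between them was -0.05 at 18 h (95% interval -0.50 to 0.41) and -0.03 at 24 h (-0.49 to 0.42). Without 0 h replicate 1 the 24 h change of Gm12688 was -0.98, under the fold threshold. Its 18 h change was -1.03 without 0 h replicate 2 and -1.07 without 0 h replicate 3, past both thresholds, and its highest adjusted p with a library left out was 0.119, without 18 h replicate 2. The 18 h call by adjusted p was also lost without 0 h replicate 1, 18 h replicate 1 or 3, or 24 h replicate 3. The first 200 of the 701 bases of Gm12688-201 (GENCODE M21) are shown with the matches to the E-box letters searched below, CACCTG and CAGCTG, in capitals.
Gm12688: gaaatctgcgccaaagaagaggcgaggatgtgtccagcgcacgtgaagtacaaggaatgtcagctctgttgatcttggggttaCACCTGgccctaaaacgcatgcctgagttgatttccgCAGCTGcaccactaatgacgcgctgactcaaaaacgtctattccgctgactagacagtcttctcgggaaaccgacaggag

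Gm15706, an uncharacterised lncRNA, fell at 24 h. It was at 5.32, 5.14 and 5.53 FPKM at 0 h, 2.92, 2.81 and 4.05 after 18 h, and 1.88, 2.01 and 3.19 after 24 h, on 43 to 114 reads in a library. All treated libraries were below all untreated ones, and replicate 3 was the highest of its group at each time. The log2 change was -0.71±0.20 at 18 h (limma adjusted p=0.0613, with the replicate block 0.00992) and -1.18±0.20 at 24 h (limma adjusted p=0.00827). With a library left out the 24 h adjusted p stayed at 0.00474 to 0.0384 and the change at -1.41 to -1.04. With a pseudocount of 1 the 24 h change was -0.93, under the fold threshold.

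**Figure D2:**
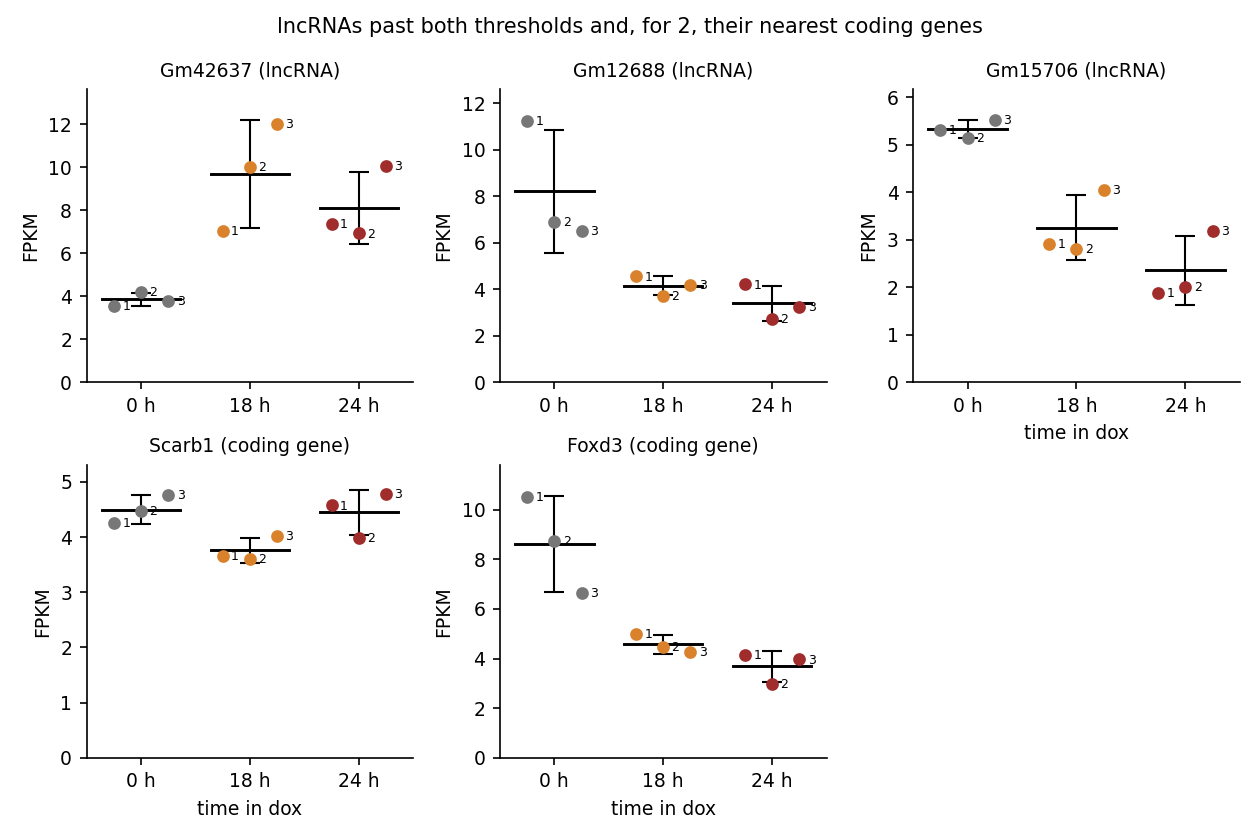
FPKM in each library of the 3 lncRNAs that passed both thresholds (top) and of the nearest coding genes of 2 of them (bottom) at 0, 18 and 24 h in dox. Points are libraries numbered by replicate, horizontal lines are group means and bars the s.d. (n=3). Gm12688, Foxd3 and Gm15706 are lower in every dox-treated library, whereas Gm42637 is higher in each of them.

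Miat, a nuclear lncRNA known from heart and retina, was higher at 24 h. Its level was 3.75, 2.83 and 2.42 FPKM at 0 h, 3.52, 3.69 and 3.67 after 18 h, and 4.92, 4.98 and 6.07 after 24 h, so that the 24 h libraries stood above all others. The change was 0.29±0.15 at 18 h (limma adjusted p=0.273) and 0.82±0.15 at 24 h (limma adjusted p=0.0111). It rests on 489 to 1535 reads in a library, and the adjusted p at 24 h was 0.0509 without 24 h replicate 3. The nearest coding gene, the lens crystallin gene Cryba4, was under the level needed for a test.

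Brip1os, transcribed across Brip1 and Ints2 on the opposite strand, was at 6.48, 8.37 and 7.93 FPKM at 0 h, 9.71, 11.5 and 11.5 after 18 h, and 9.53, 11.4 and 11.8 after 24 h. It rose by 0.52±0.12 log2 units at 18 h (limma adjusted p=0.0346) and 0.52±0.12 at 24 h (limma adjusted p=0.0271), and in every treated library it was above the untreated ones. With a library left out the adjusted p ran from 0.0325 to 0.121 at 18 h and from 0.0237 to 0.103 at 24 h, with the call lost at 24 h without 0 h replicate 1 or 24 h replicate 2 or 3. At 18 h it was lost without 0 h replicate 1 or 3, 18 h replicate 2 or 3, or 24 h replicate 2. Brip1, a DNA helicase that binds BRCA1, had values of 0.35 and 0.37 (limma adjusted p=0.096 and 0.0688, with the block 0.0149 and 0.0102). Ints2, a subunit of the Integrator complex that shares 512 exonic bases with it, had values of 0.10 and 0.04 (limma adjusted p=0.518 and 0.791).

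Gm16233 overlaps the chloride channel accessory gene Clca4a on the opposite strand. It stood at 6.66, 6.65 and 6.18 FPKM at 0 h, 4.10, 5.22 and 4.53 after 18 h, and 4.44, 3.57 and 3.85 after 24 h, with no overlap of either treated group with the untreated one. Its log2 change was -0.49±0.11 (limma adjusted p=0.0307) and -0.71±0.11 (limma adjusted p=0.00601), while Clca4a itself was too low to test. With a library left out the 24 h adjusted p stayed at 0.00716 to 0.0296, and the 18 h one ran from 0.0304 to 0.102, passing 0.05 without any 0 h library, 18 h replicate 1 or 3, or 24 h replicate 3.

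Other changes by adjusted p were those of 4933404O12Rik, B230354K17Rik and Epb41l4aos at 24 h and of Snhg6, Gm29650, Lrp8os2 and Gm14286 at 18 h. 4933404O12Rik was at 13.00, 12.2 and 12.9 FPKM at 0 h and 10.6, 9.51 and 9.09 FPKM after 24 h, a change of -0.38±0.07 (limma adjusted p=0.0108). B230354K17Rik was at 8.71, 8.39 and 7.92 FPKM at 0 h and 9.72, 10.2 and 9.54 FPKM after 24 h, a change of 0.23±0.06 (limma adjusted p=0.0444). In both, the treated and untreated libraries did not overlap. Their 18 h values were -0.18 (limma adjusted p=0.144, with the block 0.046) and 0.23 (limma adjusted p=0.0584, with the block 0.0176). At 18 h Gm29650, on the Y chromosome, was higher by 0.45±0.11 (limma adjusted p=0.0383) and Lrp8os2, which lies within Lrp8 on the opposite strand, by 0.36±0.09 (limma adjusted p=0.0498). Lrp8 itself, a receptor of the LDL receptor family, had an 18 h value of -0.40 (limma adjusted p=0.0668, with the block 0.0263), and all its 18 h libraries were below those at 0 h. Ift22, the coding gene nearest to 4933404O12Rik and a gene of intraflagellar transport, had a 24 h value of 0.26 (limma adjusted p=0.135, with the block 0.0359). Gm14286 was lower, at -0.81±0.21 log2 units (limma adjusted p=0.0467) on 21 to 52 reads. At 24 h these 3 had adjusted p of 0.131, 0.74 and 0.108, and their 24 h against 18 h difference was not called. With a library left out, the adjusted p ran from 0.0119 to 0.0469 for 4933404O12Rik and from 0.061 to 0.146 for B230354K17Rik at 24 h, so that the latter call was lost without any of the 9 libraries. At 18 h it ran from 0.0274 to 0.134 for Gm29650, from 0.0644 to 0.161 for Lrp8os2 and from 0.0388 to 0.153 for Gm14286. The Lrp8os2 call was lost without any of the 9, the Gm29650 call without any but 0 h replicate 2 and the Gm14286 call without any but 24 h replicate 2. On reads, edgeR gave these 3 adjusted p of 0.0756, 0.154 and 0.0708 and DESeq2 0.0539, 0.23 and 0.0812, and for B230354K17Rik at 24 h they gave 0.0529 and 0.0483.

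1700097N02Rik had the lowest log2 fold-change at each time but did not pass the main test. This antisense-annotated gene overlaps Glo1, the glyoxalase gene, on the same strand and starts 34 bases from it, so their values may share reads. It was at 7.05, 3.65 and 2.45 FPKM at 0 h, 2.48, 1.38 and 1.57 after 18 h, and 2.14, 1.25 and 1.43 after 24 h. The fold-change was -1.14±0.37 at 18 h (limma adjusted p=0.0918) and -1.29±0.37 at 24 h (limma adjusted p=0.0525). Within replicate numbers it was lower in every pair, and with the block the adjusted p was 0.00686 and 0.00361. Glo1 had values of -0.08 and -0.09 (limma adjusted p=0.437 and 0.333). The difference of 1700097N02Rik from Glo1 was -1.07 at 18 h and -1.20 at 24 h (limma adjusted p over pairs=0.214 and 0.165).

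Several of the highest members varied more between replicates than between times. Gm42418 (chr17:39846958-39848788) overlaps by 1245 bases the 18S ribosomal RNA-related sequence Rn18s-rs5, a pseudogene in RefSeq, and Gm26917 is its neighbour on chromosome 17. Gm42418 was at 423, 403 and 314 FPKM at 0 h, 213, 268 and 375 after 18 h, and 217, 378 and 559 after 24 h, and the pair took 0.0495 to 0.132% of reads on genes in a library. Gm15564 ranged from 11.9 to 78.2 FPKM, with 18 h replicate 1 at the bottom and 24 h replicate 3 at the top. In all 3 genes replicate 1 was the highest or next to the highest at 0 h and the lowest at 18 h and 24 h. None passed the limma test at 18 h (adjusted p=0.428, 0.29 and 0.308) or at 24 h (0.906, 0.748 and 0.741). With edgeR and the replicate block, an alternative chosen after seeing the data, Gm15564 was lower at 18 h (-1.10, edgeR adjusted p=0.0241). The share of ribosomal RNA left in each library was not measured otherwise, and its part in these values was not tested.

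**Figure D3:**
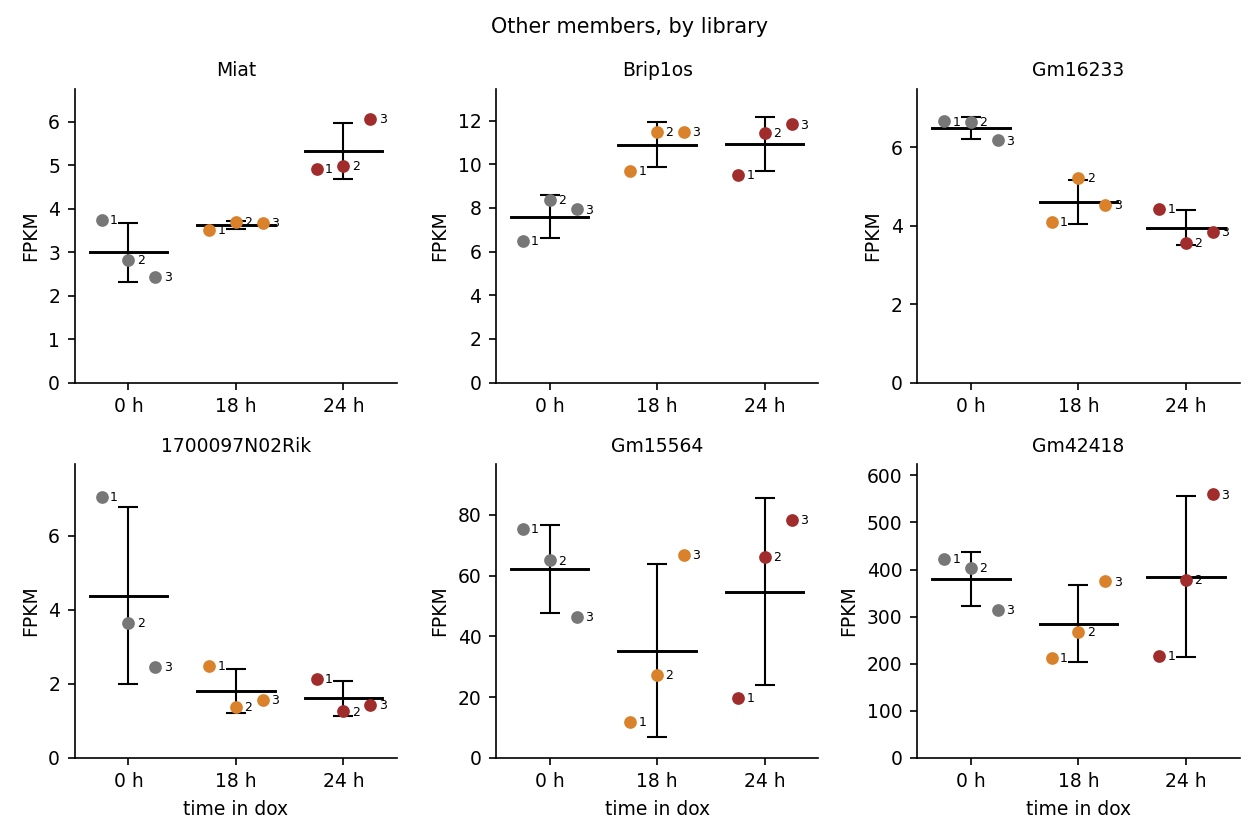
FPKM in each library of Miat, Brip1os, Gm16233, 1700097N02Rik, Gm15564 and Gm42418 at 0, 18 and 24 h in dox, with points numbered by replicate, group means as lines and the s.d. as bars (n=3). Miat, Brip1os and Gm16233 separate the 24 h from the 0 h libraries, 0 h replicate 1 stands apart in 1700097N02Rik, and Gm15564 and Gm42418 spread widely within groups.

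LncRNAs and their coding genes were compared in every member whose overlapping or nearest coding gene was also tested, 96 in all. For 2 of them, Gm42637 and Bvht, the change at 18 h differed from that of the coding gene (limma adjusted p over 732 lncRNA-coding pairs), and 2.46% of all pairs did so. At 24 h it differed for 0 of the 96 by limma, against 1.91% of all pairs. With the replicate block neither time gave a member pair. With a library left out the 18 h count stayed at 2 without 0 h replicate 1 or 24 h replicate 3, was 1 without 0 h replicate 2 or 18 h replicate 1, and was 0 without any other library. Bvht, a lncRNA known from cardiac differentiation, was at 7.80, 5.54 and 4.80 FPKM at 0 h and 7.13, 4.65 and 4.26 FPKM after 18 h. Il17b, a cytokine gene 37414 bases away, was at 1.09, 1.02 and 0.798 FPKM at 0 h and 0.569, 0.290 and 0.239 FPKM after 18 h on 4 to 18 reads, and fell, at -1.25±0.30 log2 units (limma adjusted p=0.0364). The tests on reads did not call it (adjusted p=0.0536 in edgeR and 0.0868 in DESeq2). The difference between the pair was 1.07 log2 units (95% interval 0.63 to 1.52, limma adjusted p=0.0385, with the block 0.0516).

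Across the 96 pairs limma adjusted p called the coding gene higher in 3 and lower in 7 at 18 h, beside 4.27% and 3.72% of all genes. At 24 h it was higher in 1 and lower in 7, beside 6.52% and 5.11% of all genes. Slc20a2, Ifrd2 and Plekhb1 were among those lower at both times. The values of the lncRNA and its coding gene had the same sign in 53 pairs at 18 h and 52 at 24 h. Genes are not independent replicates, and the pairs share their libraries, so correlations are given as a description. Pearson's r over the 96 pairs was 0.11 at 18 h and 0.27 at 24 h, and over 94 pairs, without Gm12688 and a pair not reported here, -0.01 and 0.08. In the 29 pairs that overlap on opposite strands it was -0.30 and -0.15, but Spearman's rank correlation was -0.006 and -0.079. These 29 include Gm15564 with Parp9, and Gm15564 spread widely between replicates. In the 50 that lie apart, without Gm12688, Pearson's r was 0.01 and 0.04. In the 12 divergent pairs, without the pair not reported here, it was 0.48 and 0.56. With Gm12688 the 51 apart pairs gave 0.13 and 0.27. No difference between arrangements was tested.

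Among the divergent coding genes reported here, the fit without the block called Sap30 lower at both times, Map2k3 lower at 24 h and Setd1b higher at 18 h. Sap30, a subunit of the Sin3 histone deacetylase complex, changed by -0.53±0.13 at 18 h (limma adjusted p=0.0389) and -0.65±0.13 at 24 h (limma adjusted p=0.0149). Its lncRNA 2500002B13Rik had values of -0.23±0.15 (limma adjusted p=0.366) and -0.35±0.15 (limma adjusted p=0.152, with the block 0.0414). Map2k3, a kinase of the p38 pathway, had an 18 h value of -0.18 (limma adjusted p=0.116, with the block 0.0294) and changed by -0.34±0.06 at 24 h (limma adjusted p=0.0106), when Map2k3os had a value of -0.41±0.17 (limma adjusted p=0.154). Setd1b, a histone H3 lysine methyltransferase gene, changed by 0.34±0.09 at 18 h (limma adjusted p=0.0451), when its lncRNA AI480526 had a value of 0.08±0.19 (limma adjusted p=0.832). The 24 h value of Setd1b was 0.25 (limma adjusted p=0.0914, with the block 0.0409). Gm15564 and Parp9 overlap on opposite strands, and Parp9 is a mono-ADP-ribosyltransferase family member whose log2 fold-change was 0.54±0.10 at 18 h (limma adjusted p=0.0138) and 0.76±0.10 at 24 h (limma adjusted p=0.00253). The difference of Gm15564 from Parp9 was -1.66 at 18 h (95% interval -3.23 to -0.10, limma adjusted p=0.259), beside the wide spread of Gm15564.

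**Figure D4:**
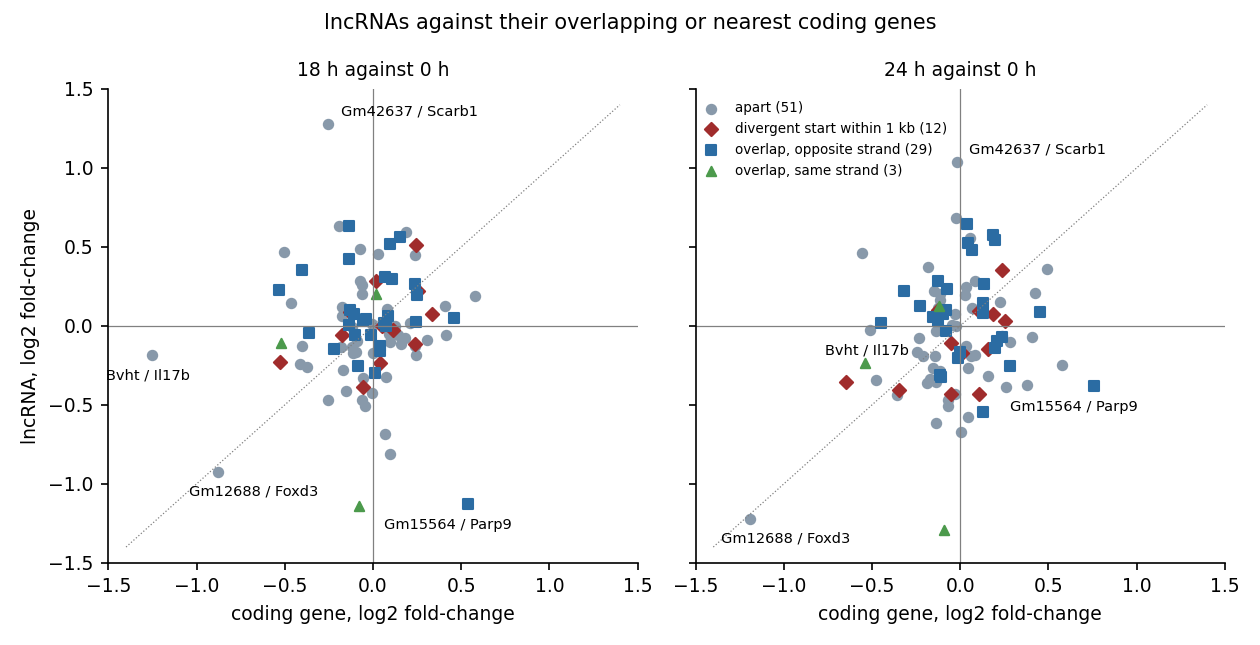
Log2 fold-change of each of 95 lncRNA members against that of its overlapping or nearest coding gene at 18 h (left) and 24 h (right) against 0 h, marked by arrangement, with the dotted line at equal change. Gm12688 with Foxd3 lies on the line at both times, and Gm42637 lies high above Scarb1.

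The snoRNA host genes, whose introns give rise to snoRNAs that guide modification of ribosomal RNA, included 5 members. Of the 18 host genes tested, 4 were lower at 18 h and 4 at 24 h by limma adjusted p and 0 were higher, with 3.72% and 5.11% of all genes lower. None reached a log2 fold-change of -1 with a passing p. With the block 6 were lower at 18 h and 8 at 24 h, when that fit called 21.6% and 26.1% of all genes in either direction. The median of the 18 was -0.27 at 18 h and -0.29 at 24 h, when the median of all genes was 0.00, and all 5 members were below 0 at both times. Snhg6 was at 34.3, 32.6 and 26.4 FPKM at 0 h and 25.1, 21.6 and 22.8 FPKM after 18 h, a change of -0.42±0.10 (limma adjusted p=0.0399), and its 24 h value was -0.28 (limma adjusted p=0.105, with the block 0.0334). Epb41l4aos was at 97.1, 91.1 and 69.1 FPKM at 0 h and 69.4, 54.4 and 56.4 FPKM after 24 h, a change of -0.51±0.13 (limma adjusted p=0.0412), and its highest 24 h library lay just above the lowest 0 h library. With a library left out the adjusted p ran from 0.0136 to 0.136 for Snhg6 at 18 h and from 0.0128 to 0.14 for Epb41l4aos at 24 h. The Snhg6 call held without 0 h replicate 3, 18 h replicate 1 or 24 h replicate 1, and the Epb41l4aos call without 0 h replicate 3 or 24 h replicate 1, and each was lost without any other library. Snhg12, Snhg9 and Snhg20 had 24 h values of -0.19, -0.31 and -0.18 and did not pass. When 1 library was left out they ranged from -0.35 to -0.08, -0.52 to -0.14 and -0.33 to -0.07, and Snhg12 passed without 0 h replicate 3 (limma, adjusted p=0.0383). Of the hosts that carry another annotation and are therefore no members, Snhg1 changed by -0.75 (limma adjusted p=0.00157), Gas5 by -0.45 (limma adjusted p=0.0125) and Snhg14 by -0.61 (limma adjusted p=0.0208) at 24 h.

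Of 7 proteins of snoRNA particles, 1 fell at 18 h and 4 at 24 h by limma adjusted p, when 3.72% and 5.11% of all genes were lower. With the block 5 and 7 fell, when that fit called 21.6% and 26.1% of all genes and 29.7% and 35.6% of coding genes of at least 2 FPKM in either direction. Nop58 and Nop56, core proteins of box C/D particles, changed by -0.33 and -0.30 at 24 h (limma adjusted p=0.0141 and 0.0405), and Nhp2 and Nop10, of H/ACA particles, by -0.45 and -0.27 (limma adjusted p=0.0244 and 0.039). Among 16 nuclear proteins that bind lncRNAs or act in X inactivation, 1 fell at 18 h and 2 at 24 h, namely the ubiquitin ligase Rlim at both times and the paraspeckle protein Nono at 24 h, and with the block 1 rose and 4 fell at 18 h and 2 rose and 3 fell at 24 h, beside the same 29.7% and 35.6% of coding genes. Of 10 nonsense-mediated decay factors and 7 m6A, export and decay factors, 0 passed limma at either time, and the block fit gave 1 nonsense-mediated decay factor higher at each time.

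The Platr transcripts, named for their association with pluripotency, supplied 8 members, and Lncenc1, a naive ESC lncRNA, a 9th from the same list. Of the 25 genes of that list that were tested, 1 fell at 18 h (Platr26, which is too low to be a member) and 0 changed at 24 h by limma, while the block fit gave 1 higher and 3 lower at 18 h and 1 higher and 7 lower at 24 h, beside 21.6% and 26.1% of all genes in either direction. Platr10, the highest, was at 96.3, 87.6 and 79.5 FPKM at 0 h, 92.5, 77.3 and 71.2 after 18 h, and 77.9, 71.8 and 59.95 after 24 h, a 24 h change of -0.33±0.12 (limma adjusted p=0.114, with the block 0.00255). The tests on reads gave this change an adjusted p of 0.0687 in edgeR and 0.0423 in DESeq2. Platr17 had a 24 h change of -0.32±0.23 (limma adjusted p=0.413, with the block 0.0239), which ran from -0.56 to -0.19 with 1 library left out. The 9 members had a median of -0.13 at 18 h and -0.27 at 24 h, and 7 and 8 of them were below 0. Lncenc1 was at 51.8, 19.7 and 24.95 FPKM at 0 h, 38.7, 19.6 and 23.5 after 18 h, and 40.1, 19.8 and 22.7 after 24 h, so that replicate 1 was the highest at each time and the groups overlapped. ESC marker genes moved in both directions by 24 h, with Tdgf1 and Pou5f1 lower (-1.46 and -0.58, limma adjusted p=0.000115 and 0.022) and Nanog higher (0.86, limma adjusted p=0.00735). The part of these in the Platr values was not tested.

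**Figure D5:**
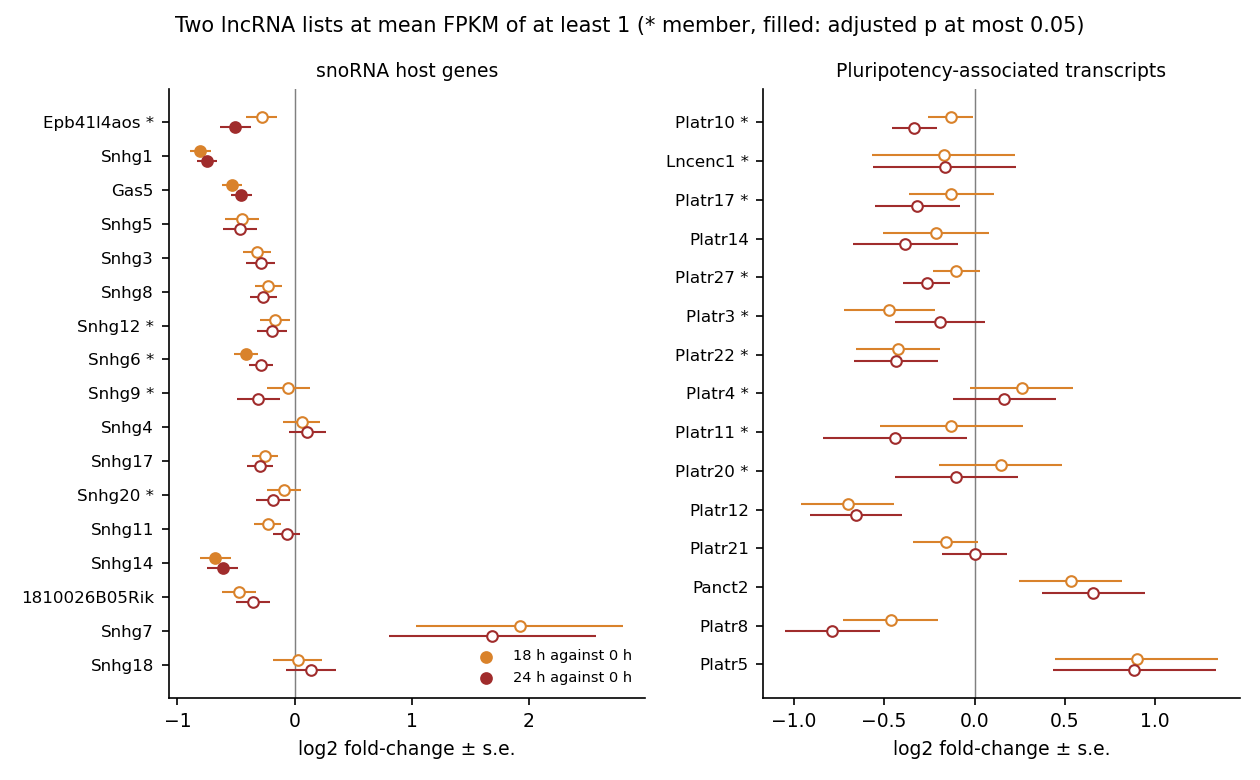
Log2 fold-change with limma standard error of the snoRNA host genes (left) and of the pluripotency-associated transcripts (right) with a mean of at least 1 FPKM, at 18 h and 24 h against 0 h, ordered by mean FPKM from the top. Stars mark members and filled points an adjusted p of at most 0.05. Most host genes lie left of 0 at both times, and no transcript on the right passes.

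Of the other named lncRNAs, Firre and Hotairm1 were called by limma adjusted p, and neither is a member. Malat1 was at 160, 127 and 130 FPKM at 0 h, 93.5, 106 and 114 after 18 h, and 93.8, 108 and 150 after 24 h. All its 18 h libraries were below those at 0 h, but the change of -0.41±0.16 had a limma adjusted p of 0.157, and at 24 h the groups overlapped. The tests on reads gave the 18 h change of Malat1 an adjusted p of 0.0923 in edgeR and 0.042 in DESeq2. Neat1, the scaffold of paraspeckles, had values of 0.00 and 0.20 with adjusted p of 0.998 and 0.541 in limma. The 24 h value of Neat1 ran from 0.0099 to 0.42 with 1 library left out. 1700020I14Rik, also known as Oip5os1 or Cyrano, had a 24 h value of 0.22±0.08 (limma adjusted p=0.113), and its 24 h libraries lay above those at 0 h. Mir17hg, host of the miR-17 to miR-92 cluster, was at 14.9±3.72 FPKM at 0 h and 11.4±0.611 at 24 h (s.d., n=3, limma adjusted p=0.171). Its 24 h log2 fold-change of -0.35 ran from -0.56 to -0.19 with 1 library left out, with a lowest limma adjusted p of 0.0099. On reads, edgeR gave an adjusted p of 0.0767 and DESeq2 0.0431 at 24 h. AU020206 stayed between 31.5 and 36.2 FPKM in the 9 libraries, with a 95% interval of -0.20 to 0.05 for its 24 h log2 fold-change. Of the X-inactivation centre and related genes, the member Ftx had a value of -0.18 at 24 h (limma adjusted p=0.413), and of the 4 tested only Firre, which is no member, was called, at -0.63 and -0.63 (limma adjusted p=0.0099 and 0.00802). Of 10 neural and developmental lncRNAs tested Hotairm1, from 0.140 to 0.486 FPKM, was higher at 24 h (1.38, limma adjusted p=0.0299), and Bvht was the single member among them. With the block 1 of the 10 rose and 1 fell at 24 h. Of 6 microRNA host genes and 4 p53-response lncRNAs tested, 0 passed limma at either time, with or without the block.

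E-boxes were searched in the RefSeq promoter windows (GRCm38.p6, 250 bases before to 50 after the start), which were found for 61 of the 112 members. Matches to CAGGTG, read as CACCTG on the other strand, occurred in 11 of the 61 windows (18.0%) and in 20.03% of all 27025 windows of the table. CAGCTG, which reads the same on both strands, occurred in 9 (14.8%) and in 16.1% of all windows. Either was found in 19 (31.1%), against 32.6% of all windows. Of the 13 members called by limma adjusted p at either time, 6 had a window, that of Gm42637 under its later name and at a start inside the M21 gene, and 3 of these, B230354K17Rik, Lrp8os2 and 4933404O12Rik, held a match. The window of 1700097N02Rik, called with the block, held matches 234 and 209 bases before the start. The windows of the 3 called members are shown with the match in capitals, from chr17:45433581-45433880 (plus strand), chr4:107822973-107823272 (minus strand) and chr5:136918896-136919195 (plus strand). The match lies 156 bases before the RefSeq start in B230354K17Rik, which was higher at 24 h, but the GENCODE M21 gene starts earlier, at position 45433598, and holds the match. It lies 63 bases before the start in Lrp8os2, which was higher at 18 h. In 4933404O12Rik, which was lower at 24 h, it lies 37 bases after the start.
B230354K17Rik: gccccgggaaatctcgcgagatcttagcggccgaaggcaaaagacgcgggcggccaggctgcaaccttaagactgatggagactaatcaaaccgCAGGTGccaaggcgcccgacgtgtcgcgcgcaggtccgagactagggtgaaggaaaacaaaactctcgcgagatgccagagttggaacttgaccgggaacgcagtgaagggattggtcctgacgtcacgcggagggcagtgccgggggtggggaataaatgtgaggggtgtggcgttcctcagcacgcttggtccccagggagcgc
Lrp8os2: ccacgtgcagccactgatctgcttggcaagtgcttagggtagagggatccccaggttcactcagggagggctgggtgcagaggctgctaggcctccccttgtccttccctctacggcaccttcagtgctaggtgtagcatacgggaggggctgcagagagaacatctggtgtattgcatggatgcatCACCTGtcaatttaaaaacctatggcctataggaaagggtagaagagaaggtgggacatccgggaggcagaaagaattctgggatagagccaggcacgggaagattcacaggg
4933404O12Rik: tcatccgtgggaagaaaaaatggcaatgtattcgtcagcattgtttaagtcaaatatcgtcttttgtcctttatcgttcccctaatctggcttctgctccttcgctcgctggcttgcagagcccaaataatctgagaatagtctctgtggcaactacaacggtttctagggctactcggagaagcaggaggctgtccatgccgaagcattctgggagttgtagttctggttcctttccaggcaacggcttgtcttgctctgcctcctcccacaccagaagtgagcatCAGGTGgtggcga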

How the data were processed

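RNA-seq was made from total RNA of 9 cultures (3 at each of 0 h, 18 h and 24 h of dox, described as biological replicates) with a stranded mRNA kit. Per the labels and the study's methods, the authors trimmed reads with cutadapt 1.9, aligned them with STAR to GRCm38 with an Ensembl annotation and used edgeR 3.16.5. The counting tool and strand setting are not given in the sources used here. The authors deposited FPKM values for 47729 genes. They also deposited, for 19210 genes, a signal of reads per gene scaled to an effective library size, and 100% of its values came out as whole reads within 0.001 of a read. Its columns of fold changes, p-values and FDR from the authors' own comparisons were not used.

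The members and gene lists were chosen with earlier results of these data known. Genes with a mean of at least 0.1 FPKM (17951) were tested with limma 3.58.1 (R 4.3.3) on log2(FPKM + 0.1) over all 9 libraries, with Benjamini-Hochberg adjustment over all genes tested, so fold changes of low genes are understated. The thresholds were an adjusted p of 0.05 and an absolute log2 fold-change of 1. Each lncRNA was paired with the coding gene that overlaps it most or lies nearest, and the per-library log2 difference of 732 pairs was tested in the same way. Named genes were members past the thresholds, the largest changes by adjusted p, the 10 highest members, the genes at the level threshold and members on the fixed lists. Gm29650, Lrp8os2, Gm14286, 1700097N02Rik, Brip1, Slc20a2, Ifrd2, Plekhb1, and the pairs of Sap30, Map2k3 and Setd1b fall outside this rule and were chosen after their values were seen. Deviations from group means of same-numbered libraries correlated at r=0.211 to 0.548 (9 pairs, 11893 genes) and those of other numbers at -0.399 to 0.110, so the numbers pair the samples, and a fit with the replicate as a block is given beside printed values whose call it changes. Replicates differed by 5.79 to 17.8 times the chi-square of sampling noise, so none were counted together. Alternatives were edgeR 4.0.16 and DESeq2 1.42.0 on the recovered reads, other pseudocounts, filters and scalings, other level thresholds, and leaving out each library. The limma code was tested on simulated data. Intervals are 95%. The coding gene of 1 pair is not reported here.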

Additional observations from a re-analysis of the deposited data

How the results depend on the processing

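In 1330 recomputations of 70 fold-changes of 35 named members, 1291 kept the direction and the joint call (or lack of one) at both thresholds, 5 lost that call, 3 gained it and 31 changed sign. The 35 did not include 1700097N02Rik, so the calls it gained, given below, are not in this tally. Calls by adjusted p alone were lost more often. At both thresholds, the replicate block (the pairing) gave 1 member down at 18 h and 3 at 24 h, where the fit without it gave 0 and 2. The added member was 1700097N02Rik each time. The block also turned the 2 pairs that differed at 18 h into 0. It changed the adjusted p calls given beside the results, and no other call of a named member at both thresholds. edgeR and DESeq2 each gave 1 down at 18 h, and edgeR with the block, an alternative chosen after seeing the data, gave 2. A pseudocount of 1 gave 0 up and 1 down at 24 h, and 5 pairs at 18 h and 4 at 24 h that differed. Without a minimum fold-change the counts were 4 up and 4 down at 18 h, and 4 up and 5 down at 24 h. With members from 1 FPKM (200 genes) they were 3 up and 2 down after 18 h and 3 up and 4 down after 24 h, and from 4 FPKM (56 genes) 1 was down at 24 h. Leaving out each library in turn gave 0 to 1 down at 18 h, 0 to 1 up and 1 to 3 down at 24 h, and 0 to 2 pairs at 18 h. The lone 0 up at 24 h came without 24 h replicate 3, and the 1 down without 0 h replicate 1, when 2900076A07Rik was the member up in place of Gm42637. The 3 down came without 0 h replicate 3, with 1700097N02Rik added. Fewer samples remain in these fits, and otherwise the cause was not tested.

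Sign changes came in uncalled values, not all of them close to 0. Leaving out each library gave log2 fold-changes from -0.40 to 0.014 for Bvht at 18 h, from -0.18 to 0.17 for it at 24 h, -0.75 to 0.24 for Gm15564 at 24 h, -0.51 to 0.16 for Gm26917 at 24 h, and -0.40 to 0.29 for Gm42418 at 24 h. They ran from -0.46 to 0.24 (18 h) and -0.47 to 0.24 (24 h) for Lncenc1, -0.19 to 0.22 for Neat1 at 18 h, -0.50 to 0.37 for Platr11 at 18 h, -0.34 to 0.00097 for Platr17 at 18 h, and -0.12 to 0.47 (18 h) and -0.36 to 0.22 (24 h) for Platr20. They ran from -0.19 to 0.019 for Platr27 at 18 h, -0.074 to 0.39 for Platr4 at 24 h, -0.21 to 0.023 for Snhg20 at 18 h and -0.26 to 0.12 for Snhg9 at 18 h. The 24 h value of Gm42418 was 0.046 with quantile normalization, 0.0099 with edgeR and 0.0012 with DESeq2, and that of Lrp8os2 was -0.0079 with quantile normalization. Depth limits the lowest members, which rest on as few as 6 reads in a library.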
